A study of Mus musculus with 4 samples.

Results

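Integrins are paired α and β chains on the cell surface that bind to other cells and to extracellular matrix, and the set described here holds the 10 integrin genes most tied to the entry of T cells into the gut and to their stay there. These were Itgae, Itgb7, Itga4, Itga1, Itga2, Itgal, Itgb1, Itgb2, Itga6 and Itgav. All non-control probes whose gene name was one of these symbols were taken, which gave 30 probes of 41174 on the array, for 10 genes of 27376 gene names. Of the 30 probes, 29 were bright enough to be tested, and each of the 10 genes kept at least 1 of them.

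The arrays were made to see how CD8αβ+ T cells of the small intestinal epithelium differ from those of the spleen. Each group held 2 samples, CD8αβ+ IELs (intraepithelial lymphocytes) and CD8αβ+ SPLs (splenocytes), all from untreated male WT mice aged 8 to 12 weeks. Each sample was a pool sorted from several mice on CD45, CD3, CD8α, CD8β and TCRβ, so the mice themselves were not measured singly, and nothing in the labels states that the pools came from separate days or litters. Total RNA of each pool went onto 1 single-colour Agilent array. P-values therefore measure the spread between these pools, and in RNA from bulk samples fewer cells of a type and less RNA per cell cannot be told apart.

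An α chain pairs with a β chain, and the pair decides what the cell can hold on to. αE pairs with β7 and binds E-cadherin on epithelial cells, while α4 pairs with β7 to bind MAdCAM-1 on the vessels of the gut, or with β1 to bind VCAM-1 and fibronectin. α1β1 and α2β1 are collagen receptors, α6 pairs with β1 or β4 to bind laminin, αv pairs serve as receptors for vitronectin and latent TGF-β, and αLβ2 (LFA-1) binds ICAM-1 on other cells.

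The 3 α chain genes with the widest differences towards a higher level in IELs were Itga1, Itgae and Itga2, and 5 of their probes are shown here. The 4 that cross an intron were chosen because they read spliced messenger RNA, and the Itga2 probe because it was the one tested for that gene. Each is a 60-base DNA oligonucleotide given in the sense of the messenger RNA, with coordinates on mm9 from the array files. Capitals mark the letters GGNTTNTT, where N is any base, which in α chains open the conserved stretch just inside the membrane.
Itgae, A_51_P352076, chr11:72959105-72960563, plus strand, across an intron: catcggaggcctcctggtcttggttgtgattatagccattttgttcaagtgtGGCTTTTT
Itgae, A_52_P549279, chr11:72945236-72946221, plus strand, across an intron: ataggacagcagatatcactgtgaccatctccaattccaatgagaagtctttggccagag
Itga1, A_52_P459929, chr13:115756765-115758419, minus strand, across an intron: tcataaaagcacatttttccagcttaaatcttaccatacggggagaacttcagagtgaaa
Itga1, A_52_P518922, chr13:115821387-115825525, minus strand, across an intron: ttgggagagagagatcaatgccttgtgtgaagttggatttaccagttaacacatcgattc
Itga2, A_51_P441983, chr13:115626714-115626773, minus strand, within 1 exon: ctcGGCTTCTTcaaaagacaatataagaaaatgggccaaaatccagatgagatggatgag

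The letters GGNTTNTT stand in 2 of the 30 integrin probes, against 1.99% of all 41174 probes read in the printed sense and 4.01% read on either strand. A match is a description of the probe and nothing more. Itga1 and Itga2 are neighbours on chromosome 13, and Itga4, Itga6 and Itgav all lie on chromosome 2. Of the 30 probes, 19 carried a RefSeq messenger RNA accession, and in each of those 19 the RefSeq table gave the same symbol as the array. The other 11 were designed on other transcripts or clones.

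The 4 arrays did not fall into 2 clean pairs, and this touches every value that follows. Levels are log2 intensities with the 75th percentile of each array set to 0, so that 1 unit is a 2-fold difference and a negative level lies below that percentile. Over 27912 probes, IEL replicate 2 correlated with SPL replicate 1 at r = 0.992, with which it shared a slide and a scan, and with IEL replicate 1 at r = 0.946. IEL replicate 1 shared its slide with SPL replicate 2, and that pair correlated at r = 0.911. Among 1190 probes at least 2 log2 units higher in IEL replicate 1 than in SPL replicate 2, IEL replicate 2 lay at a median of 25.9% of the way from SPL replicate 2 to IEL replicate 1 on the linear scale, and SPL replicate 1 at 8.41%. Among 1378 probes at least 2 log2 units lower, these medians were 26.8% and 4.82%. Values without IEL replicate 2 and within each slide are therefore given beside the integrin results.

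Across the whole array, limma (2 arrays against 2, Benjamini-Hochberg adjustment over 27937 tested probes) called no probe, 0% in each direction, at an adjusted p below 0.05. The lowest adjusted value was 0.634. With the p left unadjusted, 1295 probes (4.64%) were higher in IELs at the 0.05 threshold and 308 (1.1%) were lower. An exact permutation test of 2 against 2 arrays cannot go below p = 0.33. When IEL replicate 2 was left out, the same fit called 2590 probes higher (9.1% of 28459) and 2933 lower (10.3%). Leaving out any of the other 3 arrays gave no calls.

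None of the 29 tested integrin probes passed the adjusted threshold, and the methods' t-test gave 0 after adjustment. At an unadjusted limma p below 0.05, 5 (17.2%) were higher and 0 lower, beside 4.64% and 1.1% of all tested probes. These 5 were probes of Itgae, Itga1 and Itga2. Both IEL arrays lay above both SPL arrays for 14 of the 29 probes (48.3%), beside 24.4% of all tested probes. They lay below for 8 (27.6%), beside 24.5%, and the groups overlapped for 7. Of the 26 integrin probes above background on all 4 arrays, 12 lay above and 7 below. Probes of 1 gene are not independent, so these shares are not counts of genes. The 14 above included 5 probes of Itgav at low levels (-4.60 to -1.50), 4 of Itga1 and 2 of Itgae. Among the 8 below were 3 of Itga6 and 2 of Itga4. The difference kept its sign on both slides for 28 of the 29 probes (96.6%), beside 71.7% of all tested probes. A difference of at least 2-fold on both slides was seen upwards for 5 integrin probes (17.2%), against 1.79% of all tested probes, and downwards for none, against 0.311%. The 5 with a 2-fold difference were 1 probe of Itgae and all 4 of Itga1. The Itga1 probes A_51_P268944 and A_52_P459929 were not well above background in SPL replicate 2. They were tested only through the IEL group, where they are high, so their part in these counts is no support. The median log2 difference was 0.15 over the 29 probes and 0.08 over the brightest tested probe of each of the 10 genes, beside -0.00068 over all tested probes. Of the 29 probes 15 had a higher mean in IELs and 14 a lower one.

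**Figure D1:**
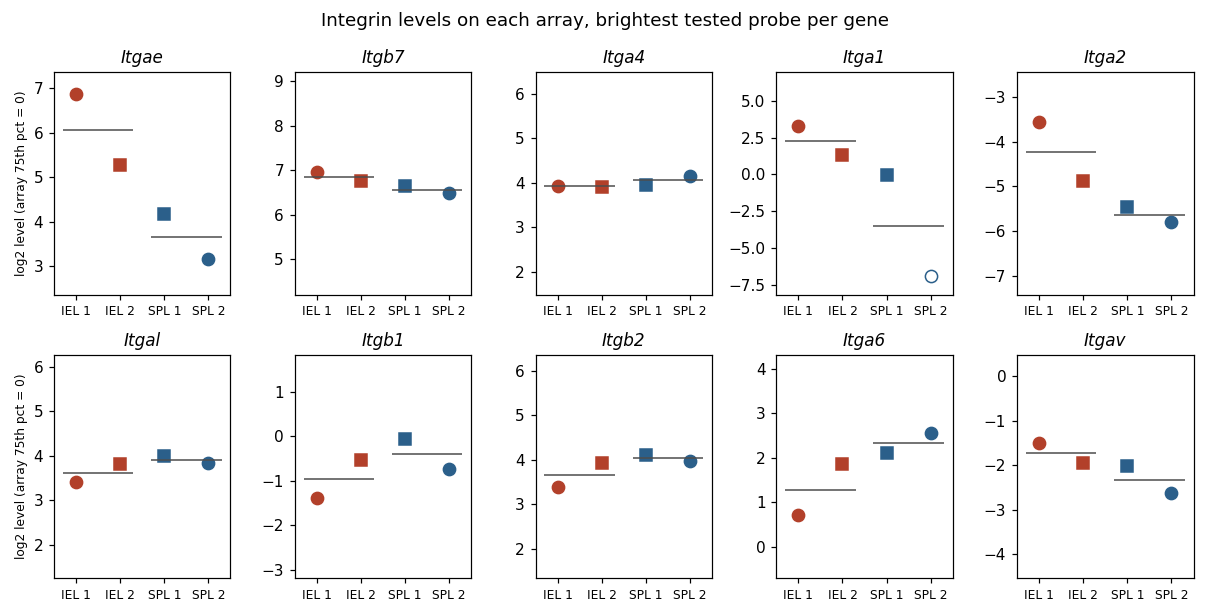
Log2 level of the brightest tested probe of each of the 10 integrin genes on each array, with 0 at the array's 75th percentile. Red marks IEL and blue SPL, circles mark slide 1 and squares slide 2, lines are group means, and the open circle is a spot not well above background. For Itgae, Itga1, Itga2, Itgb7 and Itgav both IEL arrays lie above both SPL arrays. For Itga6, Itga4, Itgal and Itgb2 both lie below, and for Itgb1 the groups overlap.

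Itgae encodes αE (CD103), the chain that with β7 holds intraepithelial T cells to E-cadherin. On probe A_51_P352076 the IEL arrays read 6.87 (replicate 1) and 5.27 (replicate 2) and the SPL arrays 4.16 (replicate 1) and 3.16 (replicate 2), an order of replicates kept throughout. The groups did not overlap, and the IEL replicates stood 1.59 apart. The mean difference was 2.41 ± 0.68 (SE, n = 2 per group), or 5.31-fold higher in IELs, with a limma adjusted p of 0.634 and an unadjusted p of 0.0203.

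The second Itgae probe, which crosses another intron, gave levels of 3.58 and 2.24 in IELs and 1.27 and 0.13 in SPLs. Its difference of 2.21 ± 0.64 (SE, n = 2 per group) lay within the error of that of the first probe. Within slide 1 the first probe was 3.71 log2 units higher in the IEL array, and within slide 2 it was 1.11 higher. On the linear scale IEL replicate 2 lay 27.6% of the way from SPL replicate 2 to IEL replicate 1 on the first probe, close to the 25.9% median of probes that were much higher in IEL replicate 1. Without IEL replicate 2, limma called both Itgae probes, at 3.20 ± 0.47 (adjusted p = 0.0196) and 2.88 ± 0.52 (adjusted p = 0.0288), n = 1 IEL array against 2 SPL arrays. Without IEL replicate 1 the first probe differed by 1.61 (limma adjusted p = 0.674), and without SPL replicate 2 by 1.91, and neither was called.

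Itgb7 encodes β7, the partner shared by αE and α4. Its single probe read 6.96 and 6.74 in IELs and 6.64 and 6.47 in SPLs. The IEL arrays lay above the SPL arrays by little, and the mean difference of 0.29 ± 0.24 (SE, n = 2 per group; limma adjusted p = 0.663) was close to its own error, with a 95% interval from -0.36 to 0.94. It was 0.49 within slide 1 and 0.10 within slide 2, and it stayed between 0.19 and 0.40 as each array was left out in turn. The β7 message thus differed by 1.23-fold where that of its αE partner differed by 5.31-fold. No test of the difference between these genes was made.

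Itga4 encodes α4, which brings T cells to the gut with β7 and to inflamed vessels with β1. Its brightest probe was nearly level, at 3.93 and 3.91 in IELs and 3.96 and 4.15 in SPLs, a difference of -0.13 ± 0.23 (SE, n = 2 per group; limma adjusted p = 0.821). Across its 6 probes the log2 difference ran from -0.28 to 0.64, with 1 probe above, 2 below and 3 overlapping. The brightest probe differed by -0.23 within slide 1 and -0.04 within slide 2, and by 0.25 under normexp background correction, an alternative that moved the median of all tested probes by -0.38. The one above, A_52_P526816, was a dim probe on another transcript, with levels from -5.07 to -3.96. The 95% interval of the brightest probe's difference ran from -0.76 to 0.49, so these arrays do not show the Itga4 message to be equal in the 2 tissues.

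Itga1 encodes α1 (CD49a), a chain of the collagen IV receptor that marks many tissue-resident CD8+ T cells, and it had the widest differences of the set. Probe A_52_P518922 was above background on all 4 arrays, with levels of 0.83 and -0.78 in IELs and -2.19 and -4.23 in SPLs. The groups did not overlap, and the difference was 3.24 ± 0.91 (SE, n = 2 per group), 9.45-fold, with a limma adjusted p of 0.634 and an unadjusted p of 0.0203. It was 5.07 within slide 1 and 1.41 within slide 2.

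The brightest Itga1 probe, A_52_P459929, read 3.26 and 1.31 in IELs, -0.06 in SPL replicate 1 and -6.87 in SPL replicate 2, where the spot was not well above background. Its difference of 5.75 ± 2.41 (SE, n = 2 per group) therefore rests largely on that 1 dim spot. Without SPL replicate 2 it was 2.35, and without SPL replicate 1 it was 9.16. The other probes, A_51_P268944 and A_52_P245620, differed by 5.53 ± 2.16 and 4.14 ± 1.48, and the first of these too was not well above background in SPL replicate 2. Within slide 2 the 4 probes agree within a narrow range, from 1.37 to 1.66. Without IEL replicate 2, limma called 1 of the 4 probes, A_52_P518922, at 4.05 ± 0.87 (adjusted p = 0.0417).

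Itga2 encodes α2 (CD49b), the other collagen-binding chain and the next gene on chromosome 13. Probe A_51_P441983 was dim on every array, at -3.56 and -4.89 in IELs and -5.47 and -5.79 in SPLs. The groups did not overlap, and the difference was 1.41 ± 0.51 (SE, n = 2 per group; limma adjusted p = 0.634), 2.65-fold. It was 2.23 within slide 1 and 0.58 within slide 2. The second probe, A_52_P612019, was well above background only in IEL replicate 1 and was not tested with all 4 arrays. It enters a fit only when IEL replicate 2 is left out, through the 1 array where it is high, so no difference is given for it. For the first probe the difference was 2.07 ± 0.27 without IEL replicate 2, a call (limma adjusted p = 0.0156), but 0.74 without IEL replicate 1 (limma adjusted p = 0.697), and normexp background correction turned its direction, to -0.89.

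Itga6 encodes α6, a laminin receptor chain found on naive T cells, platelets and the base of epithelia, and it had the widest differences towards a lower level in IELs among the 10 genes. Its brightest probe read 0.70 and 1.86 in IELs and 2.10 and 2.55 in SPLs. Both IEL arrays lay below both SPL arrays on all 3 probes, with differences of -1.05 ± 0.48, -1.29 ± 0.60 and -0.99 ± 0.43 (SE, n = 2 per group; limma adjusted p = 0.634 for each). Within slide 1 the 3 probes differed by -2.38 to -1.63, and within slide 2 by -0.35 to -0.20. Without IEL replicate 2 limma called all 3 lower, at -1.62 ± 0.30 (adjusted p = 0.0299), -2.05 ± 0.36 (adjusted p = 0.0273) and -1.52 ± 0.26 (adjusted p = 0.0247). Without IEL replicate 1 the brightest probe differed by -0.47 and was not called. On the linear scale IEL replicate 2 lay from 48.4% to 55.8% of the way from SPL replicate 2 to IEL replicate 1 on these probes, and SPL replicate 1 from 21.5% to 45.7%.

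Itgav encodes αv, whose pairs with β chains such as β6 and β8 release active TGF-β. Its brightest probe was at -1.50 and -1.96 in IELs and -2.02 and -2.63 in SPLs, a difference of 0.60 ± 0.34 (SE, n = 2 per group; limma adjusted p = 0.634). It was 1.13 within slide 1 and 0.06 within slide 2, and -0.30 under normexp background correction. Of its 6 probes 5 had both IEL arrays above both SPL arrays and 1 overlapped, with differences from 0.15 to 1.06. All 6 were dim. Before scaling, the brightest read 110 and 112 units in IELs and 118 and 97.6 in SPLs. The array 75th percentiles it was scaled by were 312 and 435 in IELs and 479 and 605 in SPLs. How much of the Itgav difference comes from this scaling was not tested. Without IEL replicate 2 only probe A_51_P498205 was called, at 1.55 ± 0.24 (adjusted p = 0.0213).

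The chains of the collagen and laminin receptors share β1, encoded by Itgb1. The main Itgb1 probe, spotted 10 times on each array, read -1.38 and -0.54 in IELs and -0.07 and -0.73 in SPLs. The groups overlapped, and the difference was -0.56 ± 0.43 (SE, n = 2 per group; limma adjusted p = 0.648), -0.65 within slide 1 and -0.47 within slide 2. The other 2 probes, A_52_P351816 and A_52_P69236, differed by -0.21 and -0.32. A_52_P69236 was dim, with levels from -5.66 to -5.16, and not well above background in IEL replicate 1. It was tested only through the SPL group, where it is higher. A_52_P351816 differed by 0.08 without IEL replicate 1 and by 0.13 without SPL replicate 1. The lower Itgb1 means, beside higher ones of Itga1 and Itga2, are thus a description only.

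Itgal and Itgb2 encode the chains of LFA-1, which T cells use to hold to antigen-presenting cells and vessels. The brightest Itgal probe read 3.41 and 3.81 in IELs and 3.99 and 3.84 in SPLs, and the Itgb2 probe read 3.38 and 3.93 in IELs and 4.11 and 3.96 in SPLs. On both of these probes IEL replicate 1 was the low array and the other 3 lay close together. The differences were -0.31 ± 0.27 for Itgal and -0.38 ± 0.29 for Itgb2 (SE, n = 2 per group; limma adjusted p = 0.674 and 0.649). Itgal differed by -0.43 within slide 1 and -0.18 within slide 2, and Itgb2 by -0.58 and -0.19. Under normexp background correction both turned in direction, to 0.17 and 0.020. The second Itgal probe differed by -0.16 and its groups overlapped. There SPL replicate 1 was the high array, at 2.04, and the others read from 1.68 to 1.75.

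**Figure D2:**
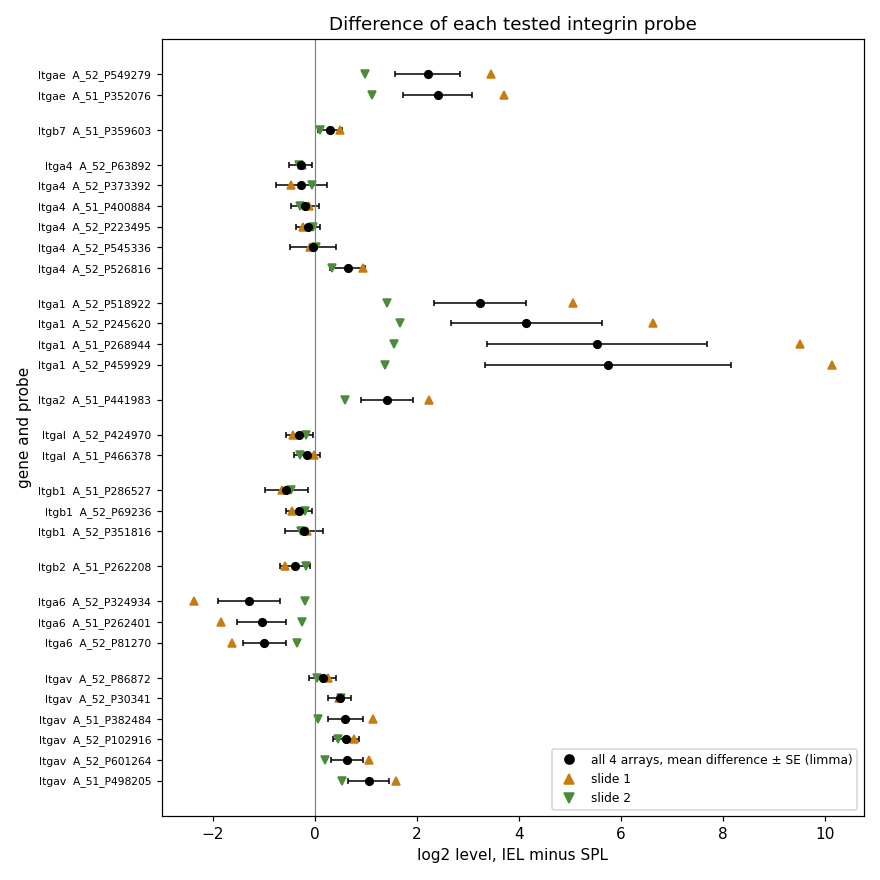
Log2 difference, IEL minus SPL, of each of the 29 tested integrin probes, grouped by gene. Black points with bars are the limma estimate from all 4 arrays ± SE, orange triangles the slide 1 difference and green triangles the slide 2 difference. For the brightest tested probe of every gene, the slide 1 difference lies farther from 0 than that of slide 2.

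The order of the arrays was the same for many of the members. IEL replicate 1 was the highest, then IEL replicate 2, SPL replicate 1 and SPL replicate 2, for 11 of the 29 probes (37.9%), beside 13.8% of all tested probes. The reverse order held for 3 probes (10.3%), all of Itga6, beside 14% of all tested probes. This order was picked out after the levels had been seen and is a description, since replicates of a group have no order of their own.

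Markers of several other cell types also differed between the arrays. Summed over the 23 tested of 24 epithelial markers, the linear level (in units of each array's 75th percentile) was 252 and 14.9 in IELs and 9.30 and 6.09 in SPLs. For 21 of the 23 both IEL arrays lay above both SPL arrays, beside 24.4% of all tested probes. The 12 tested B cell markers summed to 7.0 in IEL replicate 1 and to between 95.5 and 119 on the other 3 arrays. The 10 neutrophil markers summed to 0.315 against 36.6 to 51.1, and the 9 erythroid markers to 1.51 against 95.7 to 147. In each of these 3 lists IEL replicate 2 was near the SPL arrays and far from IEL replicate 1.

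For platelets and megakaryocytes, whose cells also carry Itga2 and Itga6, 9 of the 11 markers lay below in both IEL arrays and 1 above. Over all tested probes these shares were 24.5% and 24.4%. The median difference of the 11 markers was -1.66, and -2.62 without IEL replicate 2. Pf4, a platelet chemokine, was the lowest of them, at -7.06 and not well above background in IEL replicate 1, -0.61 in IEL replicate 2, and -0.20 and 0.56 in SPLs. The summed level of this list was 4.54 in IEL replicate 1 and 5.79 to 6.72 on the other 3 arrays. Only in IEL replicate 1 was it mostly that of Itgb3, whose log2 level was 1.92 there and at least 1.40 on the others. Macrophage and dendritic cell markers summed to 58.3 and 42.8 in IELs and 48.8 and 44.2 in SPLs, but their median difference was -0.44. Of the 16, 1 lay above, 2 below and 13 overlapped. Without IEL replicate 2 their median was -0.65, with Csf1r at -5.21 and Itgax at 2.25. NK and innate-like markers summed to between 39.1 and 46.5 on the 4 arrays, CD4 T cell markers to 3.51, 1.16, 0.758 and 0.537 in the same order, and endothelial and fibroblast markers to 0.411 in IEL replicate 1 and 1.17 to 1.22 on the others. The part of these cells in the integrin values was not tested.

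The sorted type itself was present on all arrays. CD8 T cell markers summed to 1116 and 952 in IELs and 912 and 878 in SPLs. Cd3e, of the T cell receptor complex, differed by 0.44 ± 0.33, Cd8a by 0.37 ± 0.26 and Cd8b1 by -0.39 ± 0.30 (SE, n = 2 per group), none past the threshold.

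**Figure D3:**
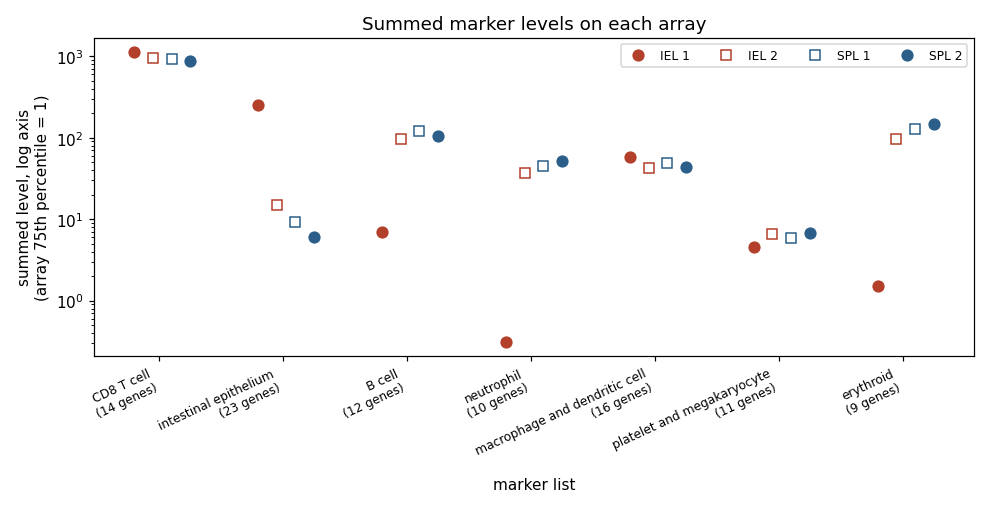
Summed linear level of the tested markers of 7 cell types on each array, on a log axis, in units of the array's 75th percentile. Red marks IEL and blue SPL, filled circles slide 1 and open squares slide 2. IEL replicate 1 is far above the other arrays for epithelium and far below them for B cells, neutrophils and erythroid cells.

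The other genes of the integrin system were read from 4 lists with 95 tested genes, 1 probe per gene. None passed the adjusted threshold in limma, 7 were higher and 2 lower at an unadjusted p below 0.05, beside 4.64% and 1.1% of all tested probes. Without IEL replicate 2 the fit called 13 higher and 18 lower, beside 9.1% and 10.3% of all probes tested in it. Of the 17 other integrin subunits on the array 14 were tested. Of these, 5 lay above, 3 below and 6 overlapped, beside 24.4% above and 24.5% below over all tested probes. Their median difference was -0.06. The highest was Itgax, the αX chain of dendritic cells and of some intraepithelial T cells, at 3.12 and 1.91 in IELs and 1.45 and 0.29 in SPLs. Its difference was 1.65 ± 0.61 (SE, n = 2 per group), 2.83 within slide 1 and 0.47 within slide 2. The lowest was Itgb5, a partner of αv, at -1.79 ± 1.27, with overlapping groups, -3.09 within slide 1 and -0.50 within slide 2. Without IEL replicate 2 limma called Itgb5 at -3.58 ± 0.47 (adjusted p = 0.0154).

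Ligands of integrins had a median difference of 0.63 over the 19 tested of 27 on the array. Of the 19, 7 lay above, 3 below and 9 overlapped, beside 24.4% above and 24.5% below over all tested probes. Cdh1, the E-cadherin bound by αEβ7 and itself an epithelial marker, was highest. Its log2 level was 2.47 and 0.70 in IELs and -0.57 and -4.18 in SPLs, in the same order of arrays as Itgae, and the difference was 3.96 ± 1.38 (SE, n = 2 per group), 6.66 within slide 1 and 1.27 within slide 2. Vcam1, the ligand of α4β1 made by stromal cells and macrophages, was lowest at -2.84 ± 2.25, with a level of -5.21 in IEL replicate 1 and between 0.07 and 1.61 on the other 3 arrays. Its spot in IEL replicate 1 was not well above background, so the size of this difference, and of the -6.05 that limma called without IEL replicate 2 (adjusted p = 0.0114), rests on a dim spot. Madcam1, the vessel ligand of α4β7, named here after its values were seen, was dim on every array, with levels from -5.60 to -3.64.

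Of 42 tested genes that activate integrins or tie them to the cytoskeleton, 12 lay above, 13 below and 17 overlapped, beside 24.4% above and 24.5% below over all tested probes. The median difference was -0.05. Parva, the adaptor α-parvin of non-haematopoietic cells, was highest at 1.80 ± 0.91, and Cd81, a tetraspanin of B cells and other lymphocytes, was lowest at -1.52 ± 1.07. Within slides 1 and 2 Parva differed by 2.94 and 0.67 and Cd81 by -2.76 and -0.28, and without IEL replicate 2 limma called both, at 3.1 ± 0.27 (adjusted p = 0.00782) and -3.04 ± 0.33 (adjusted p = 0.0109). The talin and kindlin of leukocytes, Tln1 and Fermt3, also named after their values were seen, read 4.21 and 4.27 in IELs against 4.43 and 3.99 in SPLs, and 1.47 and 2.17 against 2.24 and 1.84.

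For gut homing and residency 20 partners were tested. Of these, 6 lay above, 6 below and 8 overlapped, beside 24.4% above and 24.5% below over all tested probes. Cd244, a receptor of cytotoxic lymphocytes, was highest at 3.66 ± 1.15, with levels of 4.38 and 2.80 in IELs and 1.41 and -1.54 in SPLs.

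The partners that follow were named after their values were seen. Ccr9, the receptor for the small intestinal chemokine CCL25, read 4.81 and 4.40 in IELs and 4.0 and 3.77 in SPLs, and Runx3, a factor of CD8 T cells that acts on Itgae, read 2.96 and 2.68 against 2.41 and 1.98. Ccr7 and S1pr1, which lead T cells into and out of lymph nodes, read 1.60 and -0.45 in IEL replicate 1, 4.89 and 4.49 in IEL replicate 2, and at least 5.33 and 4.75 in SPLs. Cd69, which holds T cells in tissues, read 5.02 and 4.75 in IELs and 4.84 and 5.13 in SPLs, and Klf2, a factor that drives S1pr1, read 5.33 and 6.24 against 5.83 and 5.57, so the groups of both overlapped. None of these 6 genes passed the threshold with all arrays, and without IEL replicate 2 limma called Ccr7 at -3.96 ± 0.30 (adjusted p = 0.0062) and S1pr1 at -5.36 ± 0.27 (adjusted p = 0.00427).

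**Figure D4:**
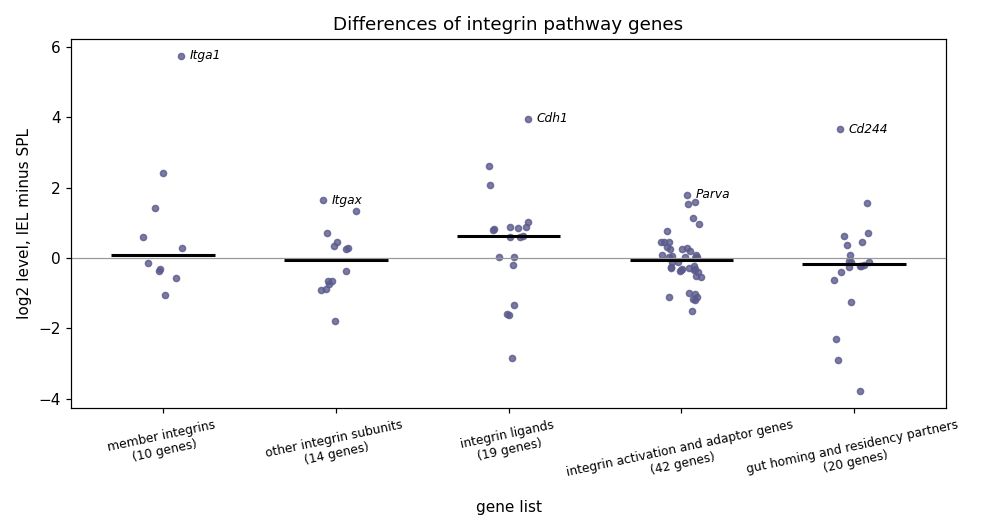
Log2 difference, IEL minus SPL, of the brightest tested probe of each gene, for the 10 integrins and for 4 lists of related genes; black lines are medians and the highest gene of each list is named. The medians lie between -0.17 and 0.63, while Cdh1 reaches 3.96 and Itga1 5.75, the latter with a spot not well above background in SPL replicate 2 (2.35 without that array).

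The genes nearest to the brightest Itgae probe in pattern, by Euclidean distance of the 4 levels about their mean, were Cyp51, Prap1, Serpinb6b, Igfbp6 and Spsb1, at distances of 0.08 to 0.12 log2 units. Their differences ran from 2.33 to 2.48. Those nearest to Itgb7 were Nagpa, Gtpbp1, Dis3l, Rasgrp4 and Arl8a, at 0.01 to 0.03, with differences of 0.28 to 0.32. With 4 arrays such likeness is a description of the levels.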

How the data were processed

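RNA of the sorted pools was labelled with 1 dye and read on 4 Agilent arrays, 2 per group. The authors deposited scanner tables made with Agilent Feature Extraction (10.7.1.1 per the labels, 10.7.3.1 per the file headers), with mm9 positions. The deposited intensity of a spot is background-subtracted and detrended within its array, and the mean spot and local background intensities are given beside it. A deposited table of log2 values, of unstated normalization, served as an alternative. The paper's methods name another chip type and are not used for these files.

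From these values log2 processed intensities were taken, minus the array's 75th percentile over 43379 non-control spots, which was 311.9 to 604.7 units. Marked outlier spots (98 to 179 per array, none saturated) were dropped and spots of a probe averaged. A probe was tested if well above background on both arrays of a group. Above background were 63.6% to 69.6% of probes. Precision is bounded by having 2 arrays per group. Tests were two-sided in limma 3.58.1 (R 4.3.3), with no block and Benjamini-Hochberg adjustment at 0.05 over all 27937 probes. The fit was run on simulated arrays with planted shifts and independent noise, as a check of its code. No simulated IEL array lay near the SPL arrays, so that run does not speak to this feature of the data. The brightest tested probe stands for a gene in counts by gene. Members and lists were chosen with earlier results of these data known. All integrin probes are reported, and of each other list the highest and lowest gene and any past the threshold (1 gene is not reported here), with Cd3e, Cd8a and Cd8b1. The 5 nearest patterns to Itgae and Itgb7 are also given. Alternatives changed the scaling, background correction, filter, test, block and arrays.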

Additional observations from a re-analysis of the deposited data

How the results depend on the processing

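With all 4 arrays, every scaling, filter, variance and block alternative called 0 of the 29 integrin probes and 0 of the other pathway genes. The fit with replicate number as a block, in which same-numbered arrays deviated together at r = -0.025 and so share only a number, left those counts at 0 and Itgae at 2.41, and the slide as a block did the same. Leaving out 1 array each gave 0 to 2590 probes called higher and 0 to 2933 lower over the array, 0 to 6 and 0 to 3 among integrin probes, and 0 to 13 and 0 to 18 among other pathway genes, all but 0 coming without IEL replicate 2, where 1 of the 6 integrin probes, of Itga2, entered only through IEL replicate 1. In those fits a lone array is assumed to vary like the other group. By the methods' t-test, unadjusted, 470 probes were higher and 349 lower, with 1 and 1 among integrin probes and 2 and 1 among other pathway genes, and 0 remained after adjustment. The unadjusted limma p, added after seeing the data, gave 1295 and 308, 5 and 0 among integrins, and 7 and 2 among other pathway genes.

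Background correction by normexp with offset 50 shifted the median of all tested probes by -0.38 and reversed 5 of the 10 genes: Itga4 to 0.25, Itga2 to -0.89, Itgal to 0.17, Itgb2 to 0.020 and Itgav to -0.30. Under it 5 integrin probes lay above and 2 below. Relative to that shift, Itga4, Itgal, Itgb2 and Itgav were higher and Itga2 lower than the array's median. A second normexp fit without the 3 to 16 spots per array lying more than 20 units below local background, chosen after seeing the data, shifted the median by 0.15 and reversed none, with 16 above and 8 below. The cause was not tested. Itgae stayed between 1.61 and 3.20, Itga1 between 2.35 and 9.16 and Itga6 between -1.62 and -0.47 over all alternatives. With the filter of well above background on all 4 arrays, the brightest Itga1 probe gave no value.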
